A study of Rattus norvegicus with 35 samples.

Results

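Of the 1073 bacterial 16S features in the table, 93 (8.67%) were read in at least 2 of the 17 faecal libraries and in none of the 18 colon libraries. They were selected on exactly those counts, so their presence in faeces and their absence from colon are the rule and not results. A feature is a distinct stretch of the amplified 16S ribosomal RNA gene, tallied as reads per library. The files identify each one by a 32-character code and pair none with a sequence or the name of a bacterium, so neither can be given.

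The data came from control rats and from rats exposed to footshock, which serves as a rat model of post-traumatic stress, in a study that asked whether the model suits work on the gut and the brain. There were 9 libraries of control faeces, 8 of shocked faeces, 10 of control colon and 8 of shocked colon. Strain, age, sex and the time between shock and sampling were not given in the sources used here, nor which part of the colon was taken. Nothing in the labels says that each library came from a separate animal, or that colon and faeces of the same number came from the same rat, so a p-value here speaks only of library-to-library spread, which may be technical.

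The 16S gene is carried by all bacteria, and its variable regions differ between lineages, so reads of an amplified region give the relative make-up of a community. Faeces carry bacteria shed along the whole bowel together with those growing in the lumen, while material from the colon can also hold bacteria that live in the mucus at its wall. Rare members of such communities lie near the limit of detection, and whether one is read depends on its share and on the number of reads. A share is relative to the other bacteria of the library, so fewer cells of one kind and more of the rest cannot be told apart.

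Faecal libraries held 4703 to 24251 reads (median 10178) and colon libraries 448 to 16155 (median 3097), with 195120 and 83858 reads in all. The lowest count above 0 in the table was 2, so a detection means at least 2 reads of a feature. Both libraries numbered 1 stood apart from their groups in earlier results of these data, and values without them are given where a result rests on them. Faeces control 1 held 73 features, the fewest of the faecal libraries (95 to 226 in the others). Colon control 1 was the deepest colon library. Without both of them 107 features met the same rule: 3 of the 93 no longer did and 17 others joined.

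The faeces-only features were mostly rare and patchy. They accounted for 10.99% of the 846 features read in faeces and for 4.04% of faecal reads. Of the 93, 54 were read in 2 faecal libraries, 26 in 3, 5 in 4, 4 in 5, 2 in 6, 1 in 7 and 1 in 8. Their mean share over the 17 faecal libraries had a median of 0.0230% and ran from 0.00322% to 1.36%, with 76 of them under 0.05% and 5 above 0.1%. Where a feature was present it took a median of 0.124% of the library's reads, or 15 reads, so most were well above the limit of 2 reads in the libraries that held them. Among their 253 occurrences, 25 rested on 2 to 5 reads and 6 reached 1% of a library. The typical faeces-only feature was therefore at a modest level in a few libraries and unread in the rest.

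Features just inside and just outside the threshold were set side by side. Mean share and total reads rise with the number of libraries holding a feature, which the rule sets, so differences are partly built in. The 54 features read in exactly 2 faecal libraries had a median mean share of 0.0171% and a median of 34 faecal reads. Just outside stood 382 features read in 1 faecal library and no colon library, at a median mean share of 0.00333% and 6 reads. In the libraries that held them, the median share was 0.110% for the 54 and 0.0566% for the 382. Also just outside were 77 features read in at least 2 faecal libraries and in a single colon library, at a median mean share of 0.0289% and with a median of 11 colon reads. All 93 faeces-only features had a median mean share of 0.0230%. In the faecal libraries that held them, the median share was 0.162% for the 77 and 0.124% for the 93. For 17 of those 77 the colon library was colon control 1, for 11 it was colon shocked 14 and for 9 colon control 3, which are the 3 deepest colon libraries.

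Per library, between 4 and 29 of the 93 features were read, and together they took between 0.582% and 25.3% of the reads. In control faeces the summed share was lowest in control 4, at 0.582% (95% exact binomial interval 0.455% to 0.732%), with a median of 2.997%. It was highest in control 1, at 25.3% (95% exact interval 24.2% to 26.3%). In shocked faeces it ran from 1.40% in shocked 18 (95% exact interval 1.18% to 1.64%) to 5.41% in shocked 11 (95% exact interval 4.89% to 5.96%), with a median of 3.31%. These intervals hold counting error alone and take each read as independent. PCR copies cannot be told apart in these counts, so the intervals may be too narrow. The shocked range lay inside the control range, so the groups overlapped.

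The high value of faeces control 1 came from a single feature, the one with the highest mean share of the 93. It held 1517 of the 6586 reads of faeces control 1 (23.0%), 2 reads of faeces control 3 (0.0105%) and none in the other 15 faecal libraries. The other 3 of the 93 that faeces control 1 held took 2.25% of its reads. By reads alone that feature accounted for 19.3% of all reads of the 93, although it met the rule by only 2 reads in its second library.

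**Figure D1:**
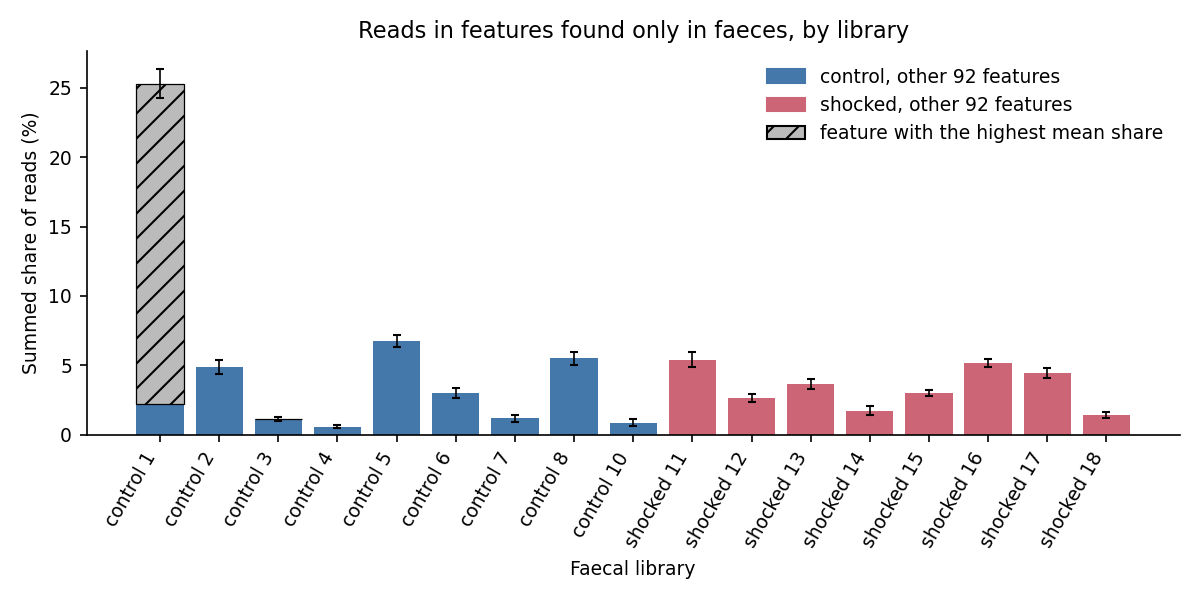
Summed share of reads in the 93 faeces-only features, in percent (y axis), for each faecal library (x axis), control in blue and shocked in red. The hatched part is the feature with the highest mean share, and error bars are 95% exact binomial intervals of the total. Faeces control 1 reaches 25.3%, of which 23.0% is that feature, and the other 16 libraries lie between 0.582% and 6.76%.

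The summed share did not separate the treatments. It averaged 5.46% ± 7.77 over the control libraries (SD, n = 9) and 3.42% ± 1.51 over the shocked ones (SD, n = 8), a difference of -2.04 percentage points that is smaller than the spread within control faeces. Without faeces control 1 the control mean was 2.98% ± 2.42 (SD, n = 8) and the difference turned to 0.439 percentage points in the other direction. Without the feature of highest mean share it was 0.522 percentage points. No test was made on this sum, since the features in it were chosen with earlier results known.

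The number of faeces-only features per library varied as widely. Control faeces held 12.6 ± 7.88 of them (SD, n = 9), from 4 in control 1 to 28 in control 5, and shocked faeces 17.5 ± 7.33 (SD, n = 8), from 8 in shocked 14 to 29 in shocked 16. The shocked libraries were also deeper on average, at 13214 reads against 9934. At an equal depth of 4000 reads, worked out from the counts, a control library would show 11.2 ± 7.11 (SD, n = 9) and a shocked one 14.9 ± 4.76 (SD, n = 8), and at 1000 reads 6.07 ± 4.33 and 7.55 ± 2.72. At each depth the groups overlapped and the means differed by less than the SD of control faeces. Without faeces control 1 the control mean at 4000 reads was 12.1 ± 7.04 (SD, n = 8).

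**Figure D2:**
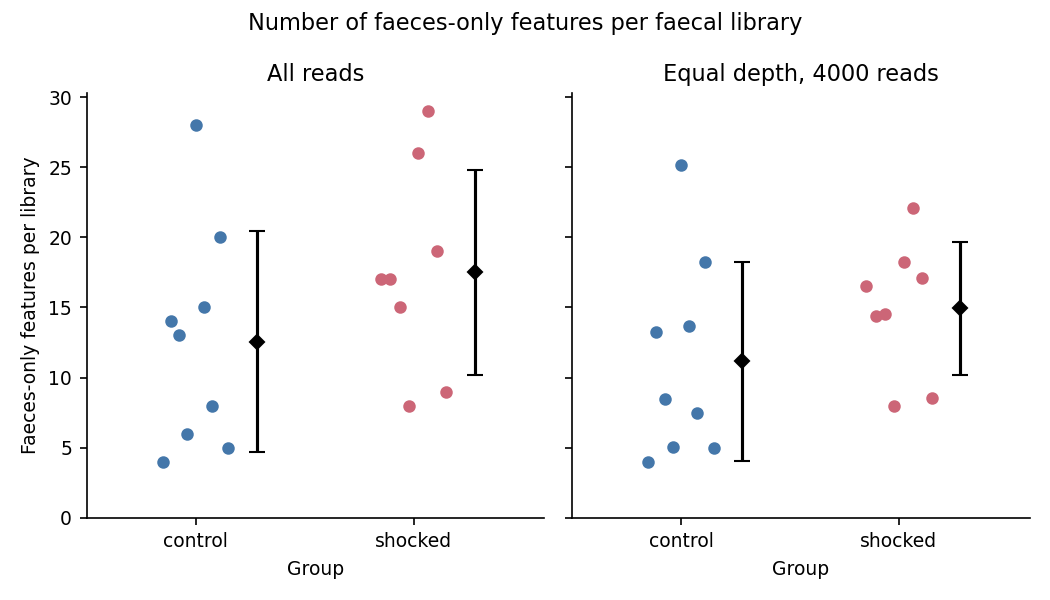
Number of the 93 faeces-only features per faecal library (y axis) in control and shocked faeces (x axis), with all reads on the left and the number worked out for 4000 reads on the right. Points are libraries, diamonds and bars the mean ± SD. The groups overlap in both panels, at 12.6 ± 7.88 and 17.5 ± 7.33 with all reads and 11.2 ± 7.11 and 14.9 ± 4.76 at equal depth.

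Most of the 93 features appeared under both treatments, but most of those read in exactly 2 faecal libraries did not. Of the 93, 52 were read in at least 1 library of each group, 16 in control faeces only and 25 in shocked faeces only. The 16 were each read in 2 control libraries, and the 25 in at most 3 shocked libraries. Among features read in exactly 2 faecal libraries, 16 of the 54 without colon reads were in control libraries only and 20 in shocked libraries only. Among the 64 with colon reads these counts were 15 and 16. Presence in 3 shocked libraries out of 8 with none out of 9 in controls gives a two-sided Fisher's exact p of 0.0824. No feature of the 93 had a lower one.

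The footshock comparison could be tested for the 8 faeces-only features read in at least 5 of the 17 faecal libraries, which is the filter of 25% of libraries used for the whole table. In all, 135 faecal features were tested and 2 of them, 1.48%, were called by edgeR's quasi-likelihood test with a Benjamini-Hochberg adjusted p under 0.05. Neither is among the faeces-only features: 0 of 8 were called, and 0 had an unadjusted p under 0.05. DESeq2 and Fisher's exact test of detection also called 0 of 8, with 0 under 0.05 unadjusted, and limma on centred log-ratios called 0, with 1 under 0.05 unadjusted. The fitted level was higher in shocked faeces for 4 of the 8 and lower for 4, while limma on centred log-ratios gave 2 and 6. Their median log2 fold change was 0.05, against 0.31 over all 135 features, and -0.51 against 0.09 with limma on centred log-ratios. The other 85 features were too sparse for the filter.

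Among the 8, the lowest p with a lower fitted level in shocked faeces belonged to fe9a3e2c5c45bec637506a2ae1eb243c. It was read in 5 of 9 control libraries, at 0.298% in control 2, 0.314% in control 3, 0.111% in control 5, 0.217% in control 7 and 0.149% in control 10. Of the shocked libraries only shocked 11 held it, at 0.183%. Control libraries averaged 0.121% ± 0.131 (SD, n = 9) and shocked libraries 0.0229% ± 0.0647 (SD, n = 8), and the single shocked value lay within the range of the control libraries that held it. The log2 fold change was -2.59 with a standard error of 1.87 and an edgeR adjusted p of 0.983. Its 95% interval ran from -6.39 to 1.21. Without faeces shocked 11, the shocked library that held it, no shocked reads were left, and the fit gave -6.84, which is not a bound, with an edgeR adjusted p of 0.0933. Leaving out any other single library gave -2.78 to -2.05. With all libraries, limma on centred log-ratios gave -3.28 (limma adjusted p = 0.266). This was the 1 feature of the 8 with an unadjusted limma p under 0.05.

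Next in that direction was ad03570a6623c3fe543fb52f514b234f, the second of the 93 by mean share. Control 5 held it at 1.66%, control 6 at 0.462% and control 8 at 0.773%. Among shocked libraries it was at 1.10% in shocked 13, 0.406% in shocked 17, 0.141% in shocked 11 and 0.105% in shocked 18. Both groups thus mixed libraries near or above 1% with libraries where it was not read, and they overlapped. The log2 fold change was -0.75 with a standard error of 1.73 (edgeR adjusted p = 0.983). It was 0.25 without faeces control 5 and -2.01 without faeces shocked 13.

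With a higher fitted level in shocked faeces, 8223fbebd20ae87c51764feada90df6d had the lowest p. It was read in 3 libraries of each group, at 0.111% in control 5, 0.295% in control 6 and 0.361% in control 10, and at 0.558% in shocked 16, 0.453% in shocked 17 and 0.475% in shocked 18. Where it was present it was higher in each of the 3 shocked libraries than in each of the 3 control libraries, but 6 control and 5 shocked libraries had no reads of it. The log2 fold change was 1.19 with a standard error of 1.83 (edgeR adjusted p = 0.983), and -0.051 with limma on centred log-ratios. It was 0.54 without faeces shocked 16 and 1.79 without faeces control 6.

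Second in that direction was the eighth of the 93 by mean share. Control 5 held it at 0.302% and control 8 at 0.148%, while shocked 11 held it at 0.451%, shocked 16 at 0.418% and shocked 17 at 0.102%. The groups overlapped, and the log2 fold change was 1.14 with a standard error of 1.85 (edgeR adjusted p = 0.983). It was 2.71 with DESeq2, 0.085 with limma, 0.63 without faeces shocked 11, 0.31 without faeces shocked 16 and 2.53 without faeces control 5. The 95% intervals of all 8 features included 0 and extended 3.4 to 3.8 on the log2 scale to either side of the estimate. At this depth and number of libraries, estimates within about 3.4 of 0 on that scale could thus not be told from 0.

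**Figure D3:**
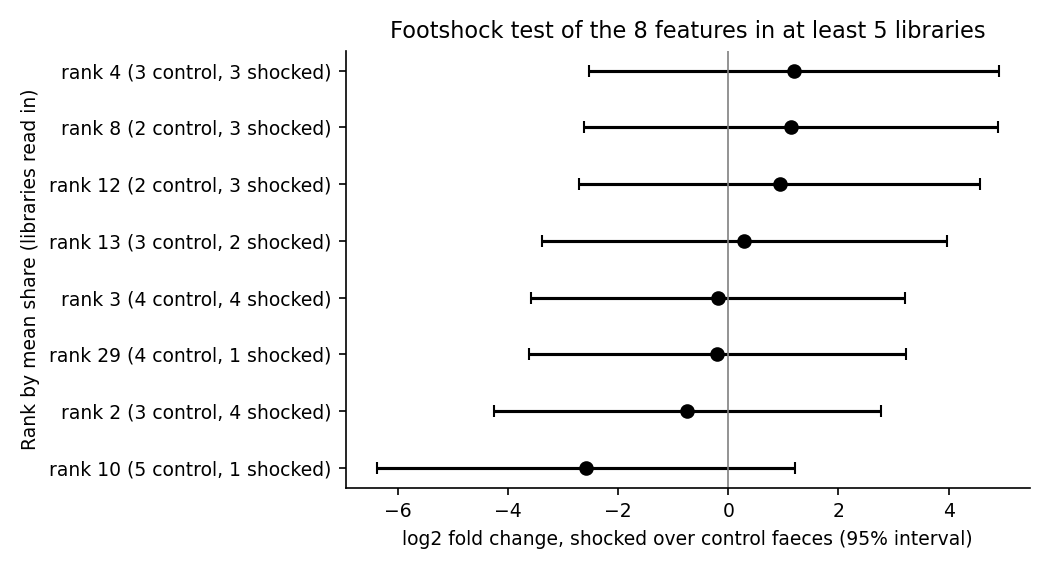
Fitted log2 fold change, shocked over control faeces (x axis), of the 8 faeces-only features read in at least 5 faecal libraries, labelled by their rank in mean share and the number of control and shocked libraries that held them. Points are edgeR estimates and bars 95% intervals. Each interval includes 0, and the estimates run from -2.59 to 1.19.

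The most widespread feature without a colon read was read in 8 of 17 faecal libraries and was the third by mean share. It was at 0.638% in control 2, 0.796% in control 5, 0.432% in control 6 and 0.297% in control 8. In shocked faeces it was at 0.706% in shocked 12, 0.392% in shocked 15, 0.492% in shocked 16 and 0.114% in shocked 18. It was read in 4 libraries of each group at overlapping levels, with a log2 fold change of -0.19 (edgeR adjusted p = 0.983). This feature had no reads in any colon library, although at its mean faecal share of 0.227% ± 0.290 (SD, n = 17) the 83858 colon reads would have held 191 of them.

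The remaining features among the 10 of highest mean share were each carried by 1 or a few libraries. The fifth was at 1.75% in faeces control 1 and 0.383% in control 6. The sixth was at 1.42% in control 8 and 0.199% in control 5, and the ninth at 0.95% in control 2 and 0.406% in control 5. The seventh was at 1.18% in shocked 11, 0.233% in control 8 and 0.115% in shocked 12. For each of these 4 the highest library held over 2 times the level of the next.

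Most pairs of the 93 features shared no faecal library. Of 4278 pairs of features, 1875 (43.8%) shared at least 1 faecal library, 327 (7.64%) shared 2 or more and 37 shared 3 or more, and no pair shared more than 4. The mean Jaccard index, which is the number of libraries 2 features share over the number that hold either, was 0.121, and 0.122 without faeces control 1. The 93 features fell into 75 patterns of presence, of which 13 were repeated and covered 31 features. The most frequent patterns were shocked 13 with shocked 16 and shocked 15 with shocked 16, with 4 features each.

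Co-occurrence was set beside that of features with colon reads at the same prevalence. Among those read in exactly 2 faecal libraries, 27.1% of pairs shared a library for the 54 without colon reads and 29.8% for the 64 with colon reads. Both libraries were shared by 1.54% and 2.53% of pairs, and 25 of the 54 and 43 of the 64 were in a repeated pattern. For those in exactly 3 libraries the shares were 55.7% (26 features) and 50.5% (43 features). These are shares of pairs within the same 17 libraries, so the pairs are not independent and the differences were not tested.

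Seen from the libraries, the pair with most features in common was shocked 15 and shocked 16, the 2 deepest faecal libraries, which shared 10 of the 45 that either held. Control 5 shared 8 with each of control 8, shocked 15 and shocked 16. Pairs of shocked libraries shared 2.86 ± 2.27 features (SD over 28 pairs), pairs of control libraries 1.67 ± 1.82 (36 pairs) and mixed pairs 1.96 ± 1.89 (72 pairs). The control value was 2.0 without faeces control 1. These means lay within 1 SD of each other. Each library enters many pairs, so the pairs are not independent, and the differences were not tested. The mean Jaccard index between libraries, shared features over those that either held, was 0.0858 for shocked, 0.0648 for control and 0.0649 for mixed pairs. Without faeces control 1 it was 0.0743 for control pairs.

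**Figure D4:**
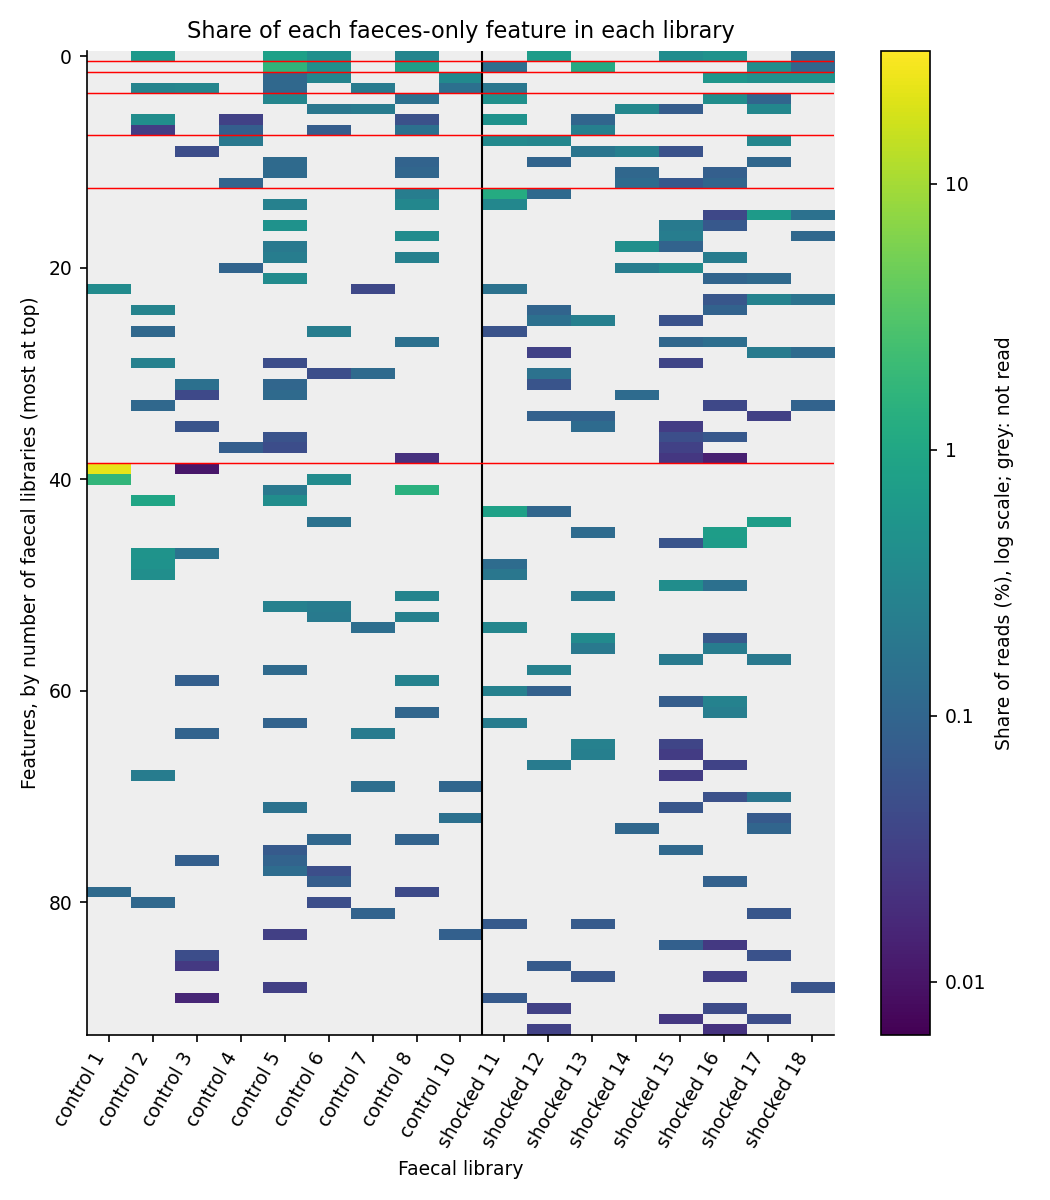
Share of reads (colour, log scale, grey where not read) of each of the 93 faeces-only features (rows, the most widespread at the top) in each faecal library (columns, control left and shocked right of the black line). Red lines separate features read in 8, 7, 6, 5, 4, 3 and 2 libraries. The 54 rows at the bottom were read in 2 libraries, and the brightest cell is the 23.0% of faeces control 1.

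Whether colon depth could have shown these features was worked out from the reads. As a rough mark, the floor of a library was set at 3 reads of its total, 1 more than the 2 that make a detection. It is not a strict limit, because a feature somewhat above it can still go undetected by counting error. It was 0.0186% in the deepest colon library, 0.0970% at the median and 0.670% in the shallowest. The mean faecal share of 56 of the 93 features lay above the lowest of these floors, that of 5 above the median and that of 1 above the highest. Most of the 93 could thus have been missed in a colon library of median depth or less, even at their faecal share. Over all colon libraries together the floor was 0.00358%, and 91 of the 93 features lay above it. A detection needs 2 reads within a single library, so a feature above this pooled floor could still go undetected. At an even mean share, the probability of no colon detection was above 0.5 for 4 features.

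Pooled over the colon libraries, depth was less limiting. At their mean faecal share, the 93 features would have had 2.70 to 1137 reads in colon (median 19.3), with 21 of them under 10. If each had that share evenly in every colon library, 6.94 of the 93 would be expected to have no colon library with 2 or more reads. If instead each colon library had the share of a faecal library taken at random, which keeps the patchiness, the number is 15.6. On that second basis the probability of no colon detection was under 0.05 for 15 features and above 0.5 for 1. It was 3.0e-05 for the feature read in 8 faecal libraries, 0.00171 for fe9a3e2c5c45bec637506a2ae1eb243c and 0.297 for the feature that dominated faeces control 1. These are counting expectations for features picked because colon had none of them, so they do not test the absence.

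A wider base is every feature read in at least 2 faecal libraries, whatever its colon reads. These too were picked by their faecal reads, and the shares come from the same libraries, so the shares may be too high and the expected numbers without colon reads too low. The observed number is the rule's own count, so the values are set side by side as a description. There were 357 such features, of which 264 were read in colon and 93 (26.1%) were not. At their faecal shares 15.02 of the 357 would be expected without a colon detection with even shares and 34.6 with the shares of single faecal libraries. Without both libraries numbered 1 the corresponding values were 107 of 351 observed, and 19.97 and 35.5 expected. The share without colon reads fell with prevalence, from 45.8% of 118 features in 2 faecal libraries and 37.7% of 69 in 3 to 14.3% of 35 in 4, and all 66 features in 9 or more faecal libraries were read in colon.

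By abundance, the expectation at these depths came close to the observed number only for the rarest features. Of the 40 with a mean faecal share up to 0.01%, 17 had no colon read, against 13.7 expected with the shares of single faecal libraries. Between 0.01% and 0.02% it was 22 of 47 against 8.44, and between 0.02% and 0.05% it was 37 of 89 against 8.74. Between 0.05% and 0.1% it was 12 of 63 against 2.51, and above 0.1% it was 5 of 118 against 1.16.

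**Figure D5:**
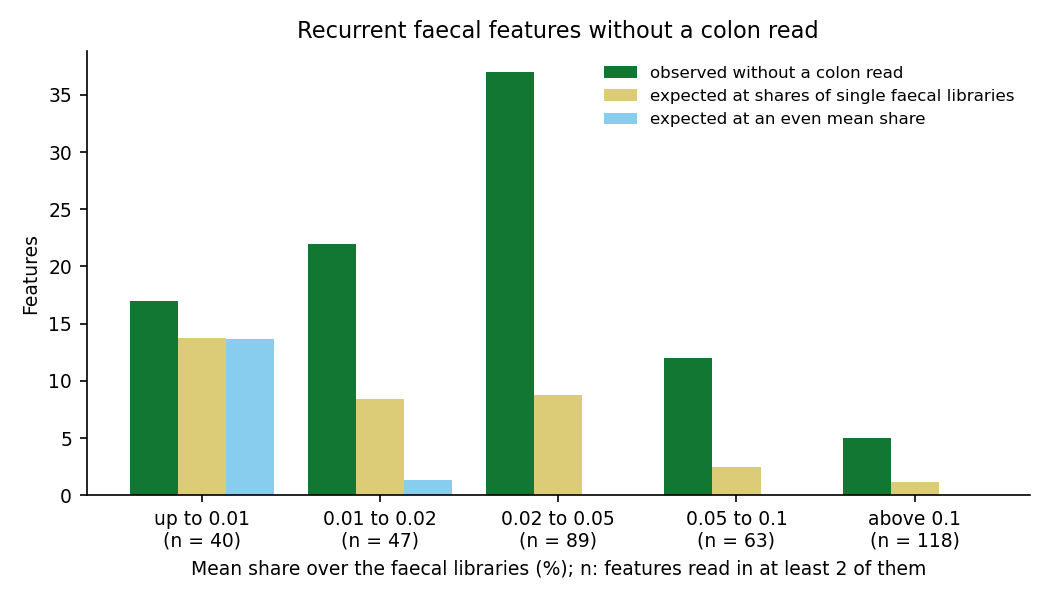
Number of features without a colon read (y axis) among those read in at least 2 faecal libraries, by mean faecal share in percent (x axis). Green bars are observed, yellow bars expected at colon depths with the shares of single faecal libraries, and blue bars expected at an even mean share. Only up to 0.01% are the bars similar, at 17 observed and 13.7 expected, and between 0.02% and 0.05% they are 37 and 8.74.

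Depths could also be compared library by library. In 14 of the 17 cases the faecal library was deeper than the colon library of the same number. Thinned to the depth of that colon library, 169 of the 253 occurrences of the 93 features (66.9%) would still be read. In shocked 12 2.66 of 17 features would remain at the 448 reads of colon shocked 12, the lowest proportion, and in shocked 15 8.66 of 26, the largest number lost. In control 2 13.7 of 14 would remain.

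To see the pattern in libraries that had not chosen it, the rule was applied to 1 treatment and read in the other. Control libraries alone gave 46 features read in at least 2 faecal and 0 colon libraries, 35 of which are among the 93. The rest are outside the 93 only because the colon of the other treatment read them. The overlap with the 93 and the colon count are therefore 1 result, in either direction. Shocked faeces held 29 of the 46 (63.0%) and shocked colon 11 (23.9%), with 10 in both. Thinned to the depth of the colon library of the same number, shocked faeces would hold 22.6 of the 46 (49.2%). Of 165 features that control libraries read in both compartments, shocked colon held 116 (70.3%) and thinned shocked faeces would hold 134 (81.0%). The 165 were far more abundant, averaging 85.4% of reads in shocked faeces against 2.27% for the 46. The 2 sets were thus not matched for abundance, on which detection also depends.

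In the other direction, shocked libraries gave 91 features, 48 of them among the 93. Control faeces held 58 (63.7%) and control colon 43 (47.3%), with 35 in both. In the 9 colon libraries with a faecal library of the same number 42 were read, against 53.7 expected in faeces thinned to their depth. Of 140 features that shocked libraries read in both compartments, control colon held 115 (82.1%) and thinned control faeces would hold 125 (89.2%). Without the libraries numbered 1, the 8 colon libraries with a matching number held 32 of the 91 (35.2%), against 53.7 expected for thinned faeces. In the same setting control libraries gave 57 features, of which shocked colon held 17 (29.8%) and thinned shocked faeces 33.9. With all libraries, 23.9% of the features chosen in control libraries and 47.3% of those chosen in shocked libraries were thus read in the colon of the other treatment. In both directions colon held fewer of the set than thinned faeces would. Fewer of the comparison features read in both compartments were also read in colon than in thinned faeces. They were not matched in abundance to the chosen sets, and the difference between the sets was not tested.

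The summed shares showed the same partial carry-over. The 46 features chosen in control libraries took 2.27% ± 0.930 of reads in shocked faeces (SD, n = 8, range 0.742% to 3.59%) and 1.10% ± 0.892 in shocked colon (SD, n = 8, range 0 to 3.09%). Chosen without the libraries numbered 1, the 57 features took 4.49% ± 0.862 and 1.92% ± 1.07 in the same libraries (SD, n = 8 each). The 91 chosen in shocked libraries took 4.86% ± 2.81 in control faeces (SD, n = 9, range 0.471% to 8.04%) and 2.11% ± 1.89 in control colon (SD, n = 10, range 0 to 5.78%). The highest of these colon values was that of colon control 1, and without both libraries numbered 1 the means of the 91 were 5.41% ± 2.44 (SD, n = 8) and 1.70% ± 1.47 (SD, n = 9). In each case faeces averaged higher and the ranges overlapped. With all libraries, all but 1 colon library of each treatment held at least 1 of the features. The comparison features read in both compartments also averaged higher in faeces. Those chosen in control libraries took 85.4% ± 6.05 in shocked faeces and 77.9% ± 7.32 in shocked colon (SD, n = 8 each). Those chosen in shocked libraries took 76.1% ± 22.4 in control faeces (SD, n = 9) and 70.2% ± 15.1 in control colon (SD, n = 10).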

How the data were processed

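Total DNA was extracted from rat colon and faeces, the V3-V4 region was amplified with the primers 341F and 805R, and sequencing used the Illumina MiSeq platform, per the labels. The submitters' processing notes name cutadapt. How reads became features is not given in the sources used here. Values are raw counts as deposited, and per the file headers the table was made from a biom file. Every column was matched to a sample by name.

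The features and the settings were chosen with earlier results of these data known. Shares are counts over the library total. Footshock was tested with edgeR 4.0.16 (R 4.3.3, TMM, quasi-likelihood) over all faecal features read in at least 25% of faecal libraries. DESeq2 1.42.0, limma 3.58.1 (0.5 read added) and Fisher's exact test were the alternatives. The edgeR step was also run on simulated data, with an outcome that is not reported here, so it adds no support to the results. The 2 tested features of lowest p in each direction are described singly, 3 by code and 1 by its rank in mean share. Colon expectations use binomial and thinning expectations hypergeometric probabilities of at least 2 reads (scipy 1.17.1); both cover counting error only. Thinning to colon depth and the shares of single faecal libraries were added after seeing the data. Figures used matplotlib 3.10.9.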

Additional observations from a re-analysis of the deposited data

Results flagged for a closer look

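Single libraries far from the rest of their group were sought 19 times, over 10 measures in control or shocked faeces, and 6 were found. Chance marks about 1 in 20 groups where values are normally distributed, which sparse shares with many zeros are not. Faeces control 1 had a summed share of 25.3% where the next control library had 6.76%, and the feature behind it took 23.0% of that library against 0.0105% in the next. The other 4 are single libraries holding more of a patchy feature than the rest of the group. Faeces control 5 held 0.302% of the eighth feature by mean share (next 0.148%) and 1.66% of ad03570a6623c3fe543fb52f514b234f (next 0.773%). Faeces shocked 13 held 1.10% of ad03570a6623c3fe543fb52f514b234f (next 0.406%). Faeces shocked 11 was the only shocked library with fe9a3e2c5c45bec637506a2ae1eb243c, at 0.183%.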

How the results depend on the processing

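The number of faeces-only features was 39 with at least 3 faecal libraries required, 475 with 1, and 170 with 1 colon library allowed. Leaving out 1 library at a time gave 79 to 110, the lowest without faeces shocked 16 and the highest without colon control 1. A shocked library held 17.5 of them on average, and 7.55 at an equal depth of 1000 reads.

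The count of faecal features called for footshock, 2 of 135, was 0 with a filter at 50% of libraries and 0 by Fisher's exact test with or without the filter. Leaving out 1 library at a time gave 0 to 3 calls: 0 on dropping control 3 or 8, or shocked 12, 14, 15, 16, 17 or 18, and 1 on dropping control 1 or 7, or shocked 13. With no prevalence filter edgeR called 475 of 846 features and 41 of the 93 faeces-only ones. Of the 475, 473 were read in 1 treatment only, as were all 41, while Fisher's exact test over the same 846 called 0 (7 at an unadjusted p under 0.05). In the other settings that tested any of the 93, 0 were called. For ad03570a6623c3fe543fb52f514b234f the log2 fold change was 0.25 without faeces control 5 (range -2.01 to 0.25 over single libraries left out), and for 8223fbebd20ae87c51764feada90df6d it was -0.051 with limma on centred log-ratios.

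The 6.94 features expected without a colon detection became 0.000834 at the median share where read, 19.8 at 50% of the faecal mean, 19.3 and 43.5 if 3 or 5 reads were needed, and 15.6 with the shares of single faecal libraries, a setting added after seeing the data. It was 9.94 without colon control 1. Among features in at least 3 faecal libraries, 67.1% of pairs shared a library. Of features chosen in at least 3 control faecal libraries, 40.0% (4 of 10) were read in shocked colon. No paired analysis was possible because the control and shocked faecal libraries tested share no library number.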

Other observations

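The mirror set, features read in at least 2 colon and 0 faecal libraries, held 38 features, against 93 in faeces. The colon libraries that gave it held 83858 reads in all and the faecal libraries 195120.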
